A study of Mus musculus with 143 samples.

Results

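RTS0080776 and RTS0080788 are 2 of the 20175 probe codes of a GeoMx whole-transcriptome panel for the mouse. In this assay, probes that hybridize to RNA carry a tag, and light frees the tags from a chosen stained area for sequencing. The 2 codes were chosen by their counts in these same data, as codes higher in microglial area of the fimbria than of grey matter. The regional values under IBA1 and under both proteins are for that reason given as a description, with no test. The files do not pair codes with genes, and no name or function can be given to either code. It is therefore not known which transcript each code reads, or whether either is a negative control probe.

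The study stained brain sections of 28-month-old female C57BL/6 mice, 5 in all: N101, N108, N110, N111 and N112, all without a treatment named in the labels. The sagittal sections were 5 µm thick and came from paraffin-embedded hemispheres fixed in 4% paraformaldehyde for 24 hours. Areas were masked for Galectin-3, for IBA1 and Galectin-3 together (here double-masked), for IBA1, or for the nuclear dye SYTO83, in the fimbria, the hippocampus and the cortex. Whether area positive for both proteins was left out of the IBA1 or Galectin-3 mask is not given in the labels. Without gene names the masked cell types could not be checked against marker genes.

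IBA1 is a calcium-binding protein used to stain microglia, the resident macrophages of the brain. Galectin-3 is a sugar-binding protein that microglia make when they take up debris, including myelin. The fimbria is a myelinated tract that carries axons of the hippocampus, and microglia of aged white matter are known to clear myelin debris.

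Of 143 segments, 122 held at least 1000 counts and a saturation of at least 0.5, where saturation is 1 minus the ratio of counts to aligned reads. Their totals ran from 1699 to 196736 counts (median 19510). The values below are shares, in counts of the code per 10000 counts of all codes, after summing the passing segments within each mouse, region and mask. The mouse was the replicate, and sums under 5000 counts (4 of 45) entered no mean and no test. An even share of all codes would be 0.496 per 10000, and no background from negative probes could be set against the values. A share can rise because more cells of a kind lie under the mask or because each holds more RNA, and these data cannot tell the cases apart.

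Counts per segment were few. Over the passing segments RTS0080776 had 264 counts and RTS0080788 had 496, beside 178 for the median code, and RTS0080788 was among the most counted codes of the panel. RTS0080776 was seen in 72 of the 122 segments with at most 21 counts in any of them, and RTS0080788 in 96 segments with at most 38. Fimbria double-masked segments held 58.0% of the counts of RTS0080776 and 33.3% of those of RTS0080788, beside 18.1% of the counts of all codes.

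In double-masked fimbria area both codes stood near the top of the panel. Pooled over the mice, RTS0080788 ranked 18 and RTS0080776 ranked 23 of 20175 codes there. In fimbria IBA1 area RTS0080788 still ranked 41, but RTS0080776 ranked 7592, at about the even share. In hippocampus IBA1 area the ranks were 1475 for RTS0080788 and 19608 for RTS0080776, the second of these among the least counted codes of the panel.

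The share of RTS0080776 in double-masked fimbria sums was 1.05 in N101, 2.02 in N108, 3.74 in N110, 4.07 in N111 and 6.64 in N112. In fimbria IBA1 sums it was 0.231, 0.424, 0.407, 0.957 and 1.45 in the same mice. Each mouse was higher under the double mask, although the ranges overlapped because N112 under IBA1 exceeded N101 under the double mask. The means were 3.50 ± 2.15 per 10000 under the double mask and 0.694 ± 0.503 under IBA1 (SD over 5 mice each).

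RTS0080776 was called higher in double-masked than in IBA1 fimbria sums, with a log2 fold of 2.02 (SE 0.35, edgeR adjusted p = 2.02e-05), where 0.844% of the 237 codes tested were called. This rise was known before the code was taken up here, and double-masked fimbria values may have been used to choose the code. RTS0080776 also passed the count filter only through its double-masked fimbria sums, the side where it is high. The call is therefore no independent support. The mean paired difference in share was 2.81 ± 1.69 per 10000 (SD over 5 mice). Its exact two-sided sign-flip permutation p was 0.0625, the lowest value 5 pairs can give, and 0.3125 after adjustment over 10 such tests. Libraries carry the letter A or B in their names, read here as the plate. Among segments of plate B alone the fold was 1.90 log2 units without a call, the exception among 18 alternatives (edgeR adjusted p = 0.255); over the others the adjusted p ran from 1.19e-06 with DESeq2 to 0.0214 with edgeR on plate A alone. The median aligned share of reads was 29.3% in the double-masked and 51.2% in the IBA1 sums, where each segment weighs by its reads. Over single segments the medians were 74.5% double-masked and 79.0% under IBA1.

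The share of RTS0080788 in double-masked fimbria sums was 1.09, 2.96, 3.38, 2.04 and 3.32 in N101, N108, N110, N111 and N112. In fimbria IBA1 sums it was 0.989, 0.848, 1.63, 2.43 and 2.54. The groups overlapped, with 4 of 5 mice higher under the double mask and N111 lower. Its log2 fold of 0.56 (SE 0.31) missed the threshold (edgeR adjusted p = 0.979), and the difference of 0.873 ± 1.06 per 10000 (SD, n = 5 mice) had an exact sign-flip permutation p = 0.1875. Both sides of this contrast may have been used to choose RTS0080788, so these tests are not independent of the choice. Over the alternatives the fold ran from 0.25 without N108 to 1.01 on plate A alone, with a call in 0 of 17. Whether the 2 codes differ in this mask contrast was not tested. As a description, RTS0080776 made up 48.1% of the counts of both codes in double-masked fimbria area (Clopper-Pearson 95% interval 42.5% to 53.8%) and 25.8% in IBA1 area (18.3% to 34.6%). That percentage was higher under the double mask in 5 of 5 mice; the intervals cover counting error only.

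**Figure D1:**
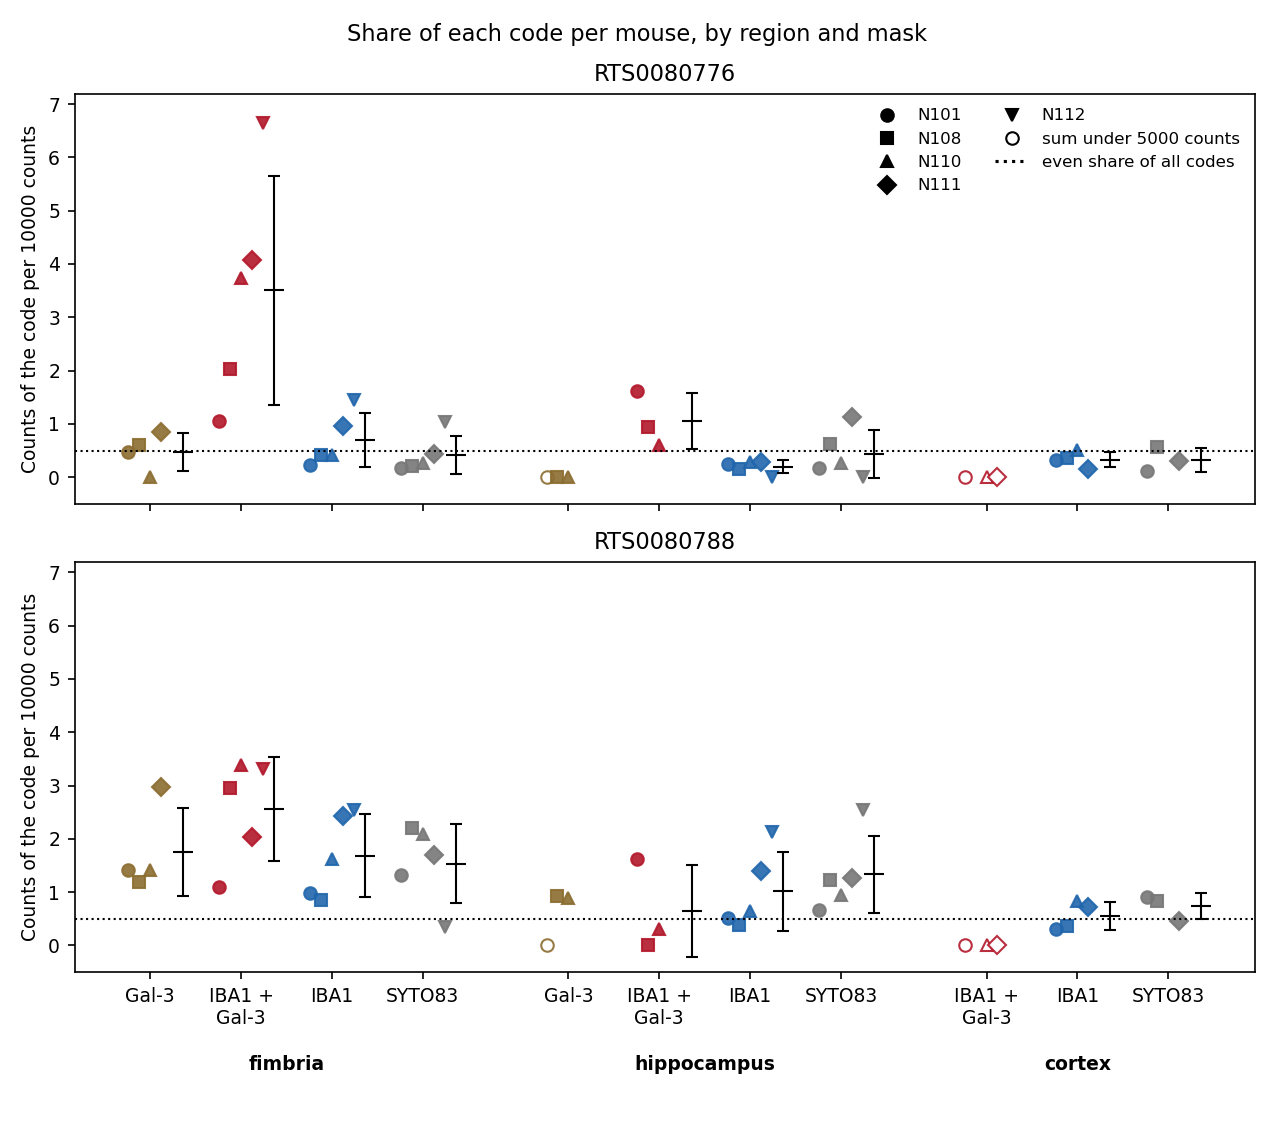
Share of RTS0080776 (top) and RTS0080788 (bottom) in counts per 10000, by region and mask. Each point is the sum of 1 mouse, open where it holds under 5000 counts, the black dash with bars is the mean and SD over mice with larger sums (drawn for 3 or more), and the dotted line is the even share. RTS0080776 reached 1.05 to 6.64 in double-masked fimbria sums, against 0.231 to 1.45 in IBA1 fimbria sums, while RTS0080788 overlapped between those masks.

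The same contrast could be followed inside single regions of interest. In 15 fimbria regions of interest with both masks, RTS0080776 was higher in the double-masked segment in 15 and RTS0080788 in 10. The medians were 2.65 per 10000 double-masked and 0.374 under IBA1 for RTS0080776, and 2.01 double-masked and 1.01 under IBA1 for RTS0080788. In the 7 regions of interest whose double-masked segment was the deeper of the pair, RTS0080776 was higher there in 7, with pooled shares of 2.33 double-masked and 0.388 under IBA1. In the 8 where it was the shallower, RTS0080776 was also higher in 8, with pooled shares of 1.85 double-masked and 0.514 under IBA1. RTS0080788 was higher in 7 of 7 where the double-masked segment was deeper (pooled 2.84 double-masked and 1.07 under IBA1), and in 3 of 8 where it was shallower (1.38 double-masked and 1.32 under IBA1). The split by depth was chosen after the values were seen, and regions of interest of a mouse are not replicates.

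**Figure D2:**
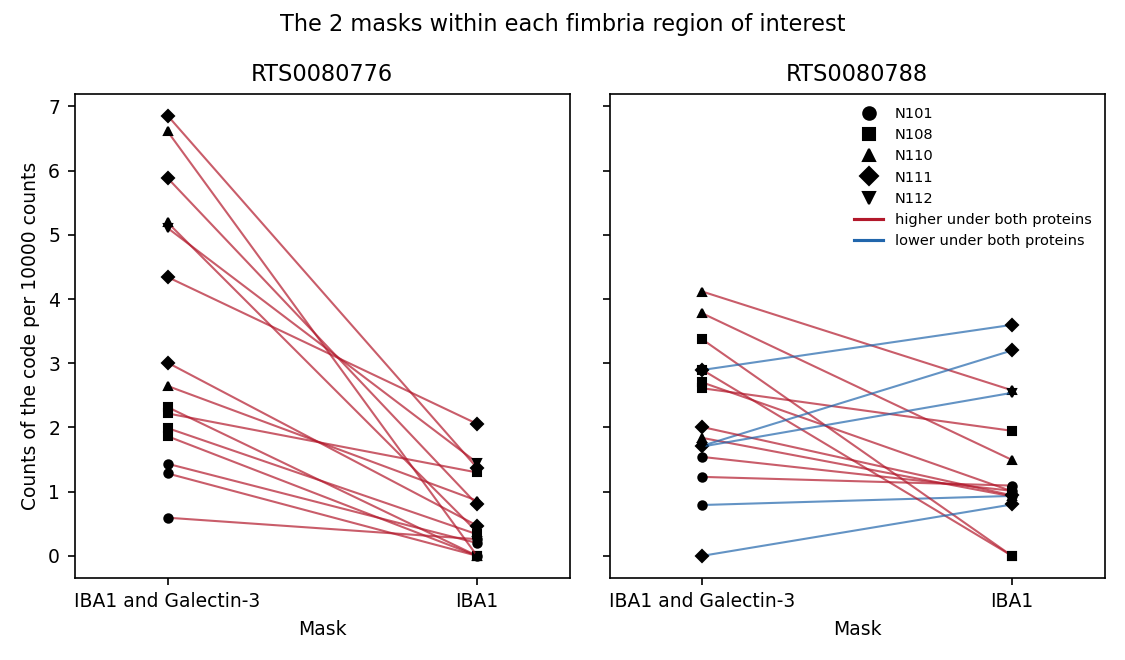
Share in counts per 10000 under the double mask (left) and the IBA1 mask (right) in 15 fimbria regions of interest; lines join the segments of 1 region and symbols give the mouse. All 15 lines of RTS0080776 are higher on the left, while 5 of the 15 lines of RTS0080788 are lower there.

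Area labelled for Galectin-3 showed a low share of RTS0080776. Fimbria Galectin-3 sums held 0.474 in N101, 0.593 in N108 and 0.851 in N111, while N110 had 0 of 21091 counts, which allows up to 1.42 per 10000. Each of the 4 mice was below its own double-masked sum, and the limit of N110 lay above the lowest double-masked mouse, N101 at 1.05. The mean of 0.480 ± 0.356 per 10000 (SD, n = 4 mice) rests on 5 counts. RTS0080776 fell by 2.24 log2 in Galectin-3 against double-masked sums (SE 0.59, edgeR adjusted p = 0.0122), where 2.53% of the tested codes were called. The double-masked side may have been used to choose the code, and through it the code passed the count filter. A fall against it is therefore no independent support. The call was lost without N101, N108, N110 or N111, on either plate alone, and with segments of at least 75% aligned reads, with folds of -2.93 to -1.99 log2 units over all the alternatives.

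RTS0080788 was not called in that contrast. Its shares were 1.42, 1.19, 1.42 and 2.98 per 10000 in Galectin-3 sums of N101, N108, N110 and N111. These values lay inside the range of the double-masked sums, and 2 of the 4 mice were higher and 2 lower than under the double mask. Its log2 fold was -0.48 (SE 0.44, edgeR adjusted p = 0.884). The double-masked side may have been used to choose RTS0080788 too. The fold was -0.25 without N101, -0.91 without N112, -1.44 on plate A alone and -1.71 at 75% aligned reads, with a call in 0 of 16 alternatives. Galectin-3 segments were shallow, with a median of 5204 counts and 30.0% aligned reads, beside 24202.5 counts and 74.5% in double-masked fimbria segments. Over sums per mouse the median aligned shares were 18.9% for Galectin-3 and 29.3% for the double mask. The part of depth and alignment in the results was not tested.

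Nuclear-stained and IBA1 area of the fimbria overlapped in RTS0080788. The shares of RTS0080788 in SYTO83 sums of the fimbria were 1.33, 2.20, 2.08, 1.70 and 0.346 in N101, N108, N110, N111 and N112, and IBA1 exceeded SYTO83 in 2 of 5 mice. IBA1 against SYTO83 gave a log2 fold of 0.27 (SE 0.29, edgeR adjusted p = 0.647), where 5.20% of 866 tested codes were called. The fimbria IBA1 values may have been used to choose RTS0080788, and it passed the count filter only through fimbria sums. This test is therefore not independent of the choice. The fold was 0.99 on plate B alone and -0.13 on plate A alone. Scaled by total counts it was -0.15, while the median of all tested codes moved to -0.45, from -0.00 with TMM scaling.

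RTS0080776 held 0.166, 0.209, 0.272, 0.426 and 1.04 per 10000 in the same SYTO83 sums. IBA1 was higher in 5 of 5 mice by small amounts. In the same order of mice, these shares rest on 7, 3, 2, 15 and 4 counts under IBA1 and 2, 2, 3, 4 and 3 under SYTO83. The fimbria IBA1 values may have been used to choose the code. The mean difference was 0.272 ± 0.195 per 10000 (SD, n = 5 mice; exact sign-flip permutation p = 0.0625, adjusted 0.3125). It did not pass the count filter of that fit, and without the filter its log2 fold was 0.67 (SE 0.50, edgeR adjusted p = 0.714). Among 13 fimbria regions of interest with both masks it was higher under IBA1 in 6, lower in 5 and equal in 2, so the direction seen in the sums was not seen in each region.

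The regional pattern by which the codes were chosen is a description here. Under IBA1 the share of RTS0080788 in the fimbria exceeded that of the hippocampus in 5 of 5 mice, with hippocampus sums at 0.506, 0.388, 0.653, 1.40 and 2.13 per 10000 in N101, N108, N110, N111 and N112. It also exceeded the cortex in 4 of 4 mice, where the sums held 0.314 to 0.839. The ranges of fimbria and hippocampus overlapped between mice, while every fimbria sum was above every cortex sum. The folds were 1.01 log2 units (SE 0.33) against the hippocampus and 1.32 (SE 0.48) against the cortex.

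RTS0080776 was less regular between regions. Under IBA1 it was higher in the fimbria than in the hippocampus in 4 of 5 mice, with hippocampus sums of 0.253, 0.155, 0.288 and 0.279 in N101, N108, N110 and N111 and 0 of 23473 counts in N112 (up to 1.28 per 10000). It was higher than in the cortex in 2 of 4 mice, and cortex sums held 0.144 to 0.503. The folds were 1.12 log2 units (SE 0.44) against the hippocampus and 0.73 (SE 0.64) against the cortex. The fimbria level was high mainly in N111 and N112, and in the other 3 mice it lay between 0.231 and 0.424.

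Double-masked area outside the fimbria was small. In hippocampus sums RTS0080776 held 1.62, 0.937 and 0.604 per 10000 in N101, N108 and N110, from 5 counts in all, and RTS0080788 held 1.62, 0 and 0.302 from 2 counts. Fimbria exceeded hippocampus under this mask in 2 of 3 mice for each code, and N101 was lower in the fimbria for both. The cortex double-masked sums, of 3 mice and 12113 counts together, had 0 counts of either code, which allows up to 2.48 per 10000. That limit lies above the pooled double-masked fimbria shares of 2.19 for RTS0080776 and 2.37 for RTS0080788, so a lower cortex level was not detectable at this depth.

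Within the hippocampus the double mask was set against IBA1 as in the fimbria. These hippocampus sums may have been used to choose the codes, as the grey matter side. Both codes also passed the count filter only through fimbria sums, so the tests are not independent of the choice. RTS0080776 was higher under the double mask in 3 of 3 mice, with a log2 fold of 1.16 (SE 0.83), and was not called (edgeR adjusted p = 0.776; 0.844% of 237 codes called). RTS0080788 had a log2 fold of -1.62 (SE 0.93, edgeR adjusted p = 0.663) and was lower under the double mask in 2 of 3 mice. Its mean paired difference in share was 0.126 ± 0.858 per 10000 (SD over 3 mice). N101 was the only mouse higher, on 1 count of 6165 under the double mask. Whether the mask contrast of either code differs between fimbria and hippocampus was not tested.

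SYTO83 area is not part of the microglial contrast that chose the codes, and the regions were tested there. However, RTS0080788 passed the count filter of that fit only through its fimbria sums, the side where it was chosen as high. The edgeR region tests of RTS0080788 are therefore not free of that choice. RTS0080788 had a log2 fold of 0.42 in fimbria against hippocampus (SE 0.36, edgeR adjusted p = 0.735; 0.115% of 866 codes called) and was higher in 4 of 5 mice. Its hippocampus SYTO83 sums held 0.662, 1.23, 0.950, 1.27 and 2.55 per 10000 in N101, N108, N110, N111 and N112, and N112 ran against the others. Against the cortex, with sums of 0.904, 0.837 and 0.455 in N101, N108 and N111, it was 1.08 log2 units higher (SE 0.45) and higher in 3 of 3 mice. It was not called (edgeR adjusted p = 0.842), in a comparison where edgeR called 0.00% of 866 codes, DESeq2 called 0 and 37 had an unadjusted edgeR p under 0.05.

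RTS0080776 showed no regional order under SYTO83 that exceeded the spread. Its fimbria mean of 0.422 ± 0.358 stood beside 0.434 ± 0.449 in the hippocampus (SD, n = 5 mice each) and 0.325 ± 0.223 in the cortex (SD, n = 3 mice). The differences were higher in the fimbria in 3 of 5 and 2 of 3 mice (exact sign-flip permutation p = 1 for each).

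Ordered by mean share, RTS0080776 ran from double-masked fimbria (3.50) and double-masked hippocampus (1.05) to fimbria IBA1 (0.694), fimbria Galectin-3 (0.480), hippocampus SYTO83 (0.434), fimbria SYTO83 (0.422), cortex IBA1 (0.329), cortex SYTO83 (0.325) and hippocampus IBA1 (0.195). From double-masked hippocampus downward, neighbouring means differed by less than the larger SD of the pair. For RTS0080788 the order was double-masked fimbria (2.56), fimbria Galectin-3 (1.75), fimbria IBA1 (1.69), fimbria SYTO83 (1.53), hippocampus SYTO83 (1.33), hippocampus IBA1 (1.01), cortex SYTO83 (0.732), double-masked hippocampus (0.641) and cortex IBA1 (0.557). The 4 fimbria groups held the top 4 places for RTS0080788, and each pair of neighbours in its order differed by less than the larger SD of the pair. Hippocampus Galectin-3 area, with 23695 counts, is left out of both orders: it held 0 counts of RTS0080776, which allows up to 1.27 per 10000, and 2 of RTS0080788.

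Joint movement of the 2 codes was followed over fimbria segments under each mask, and differences between masks were not tested. Over 17 IBA1 segments the shares had a Pearson r of 0.736 and a Spearman rho of 0.651, and 0.654 and 0.738 after each mouse's mean was subtracted. Over 18 double-masked segments r was 0.334 and rho 0.232, and 0.140 and 0.0568 within mice. Inside single mice under the double mask r was -0.592 in N108 (4 segments), -0.494 in N110 (5) and -0.465 in N111 (4). Under IBA1 it was 0.963 in N108 (4 segments) and 0.494 in N111 (6). The 2 IBA1 segments with 0 counts of both codes were both of N108, whose other segments held at most 3 counts of either code. The N111 segments lay on both plates, and both codes had higher pooled IBA1 shares on plate B in that mouse.

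Galectin-3 and SYTO83 segments showed little joint movement, with r of 0.0212 over 13 and -0.189 over 16 segments. The segments share mice, plates and depth, and no p is given. The counts behind each point were few, with a median of 1 count of RTS0080776 and 3 of RTS0080788 in IBA1 segments and of 6 and 5.5 in double-masked segments. The double-masked correlation rested on N112, and without that mouse r was -0.0271 over 16 segments, while without N111 it was 0.613 over 14.

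**Figure D3:**
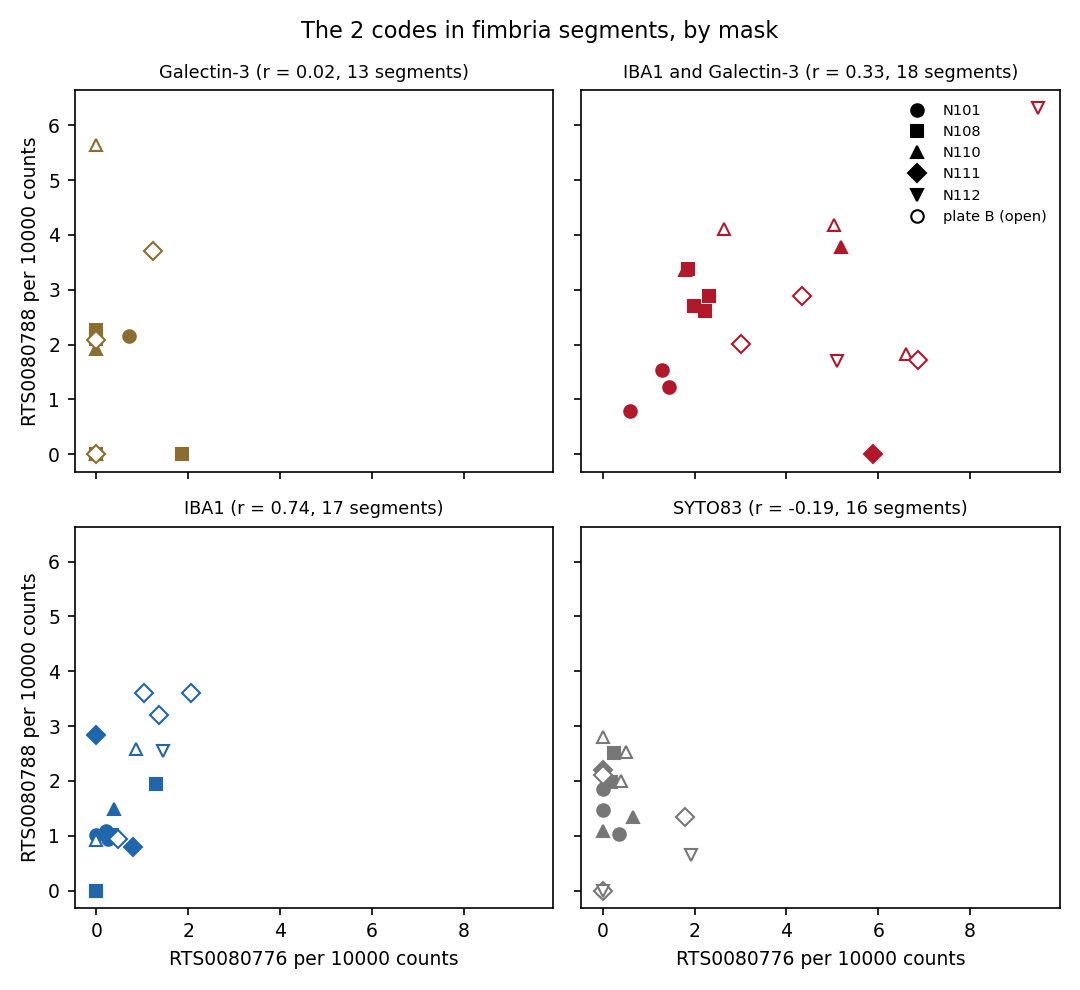
RTS0080776 (horizontal) against RTS0080788 (vertical) in counts per 10000 over fimbria segments, by mask, with symbols for mice and open symbols for library plate B. The codes rise together over 17 IBA1 segments (r = 0.736), while 18 double-masked segments scatter widely (r = 0.334).

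Depth moved with RTS0080776 in double-masked fimbria segments. Its share had r = -0.806 with the log2 total of the segment over 18 segments, and -0.524 after mouse means were subtracted, while RTS0080788 had -0.0807. In IBA1 fimbria segments the r of RTS0080776 with depth was 0.0267 over 17 segments. Plates differed in the same direction: pooled double-masked shares of RTS0080776 were 4.53 per 10000 on plate B and 1.73 on plate A, with median totals of 9422.5 and 57521 counts. IBA1 segments gave 1.12 on plate B and 0.307 on plate A, with median totals of 21224 and 22219.5.

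For RTS0080788 the pooled shares were 2.96 per 10000 on plate B and 2.25 on plate A under the double mask, where the segment medians ran the other way (2.45 on plate B and 2.66 on plate A). Under IBA1 they were 2.71 on plate B and 1.05 on plate A. The labels put N101 and N108 on plate A only and N112 on plate B only, so plate and mouse cannot be told apart for these 3. In N110, which was on both plates, RTS0080776 held 4.51 on plate B and 2.88 on plate A under the double mask, and 0.446 on plate B and 0.374 on plate A under IBA1. RTS0080788 in N110 held 3.28 on plate B and 3.49 on plate A under the double mask, and 1.78 on plate B and 1.49 on plate A under IBA1. In N111 the double-masked values of RTS0080776 were 3.98 on plate B and 5.89 on plate A, the second from 1 count in a segment of 1699. Under IBA1 RTS0080776 held 1.18 on plate B and 0.544 on plate A in N111. RTS0080788 in N111 had double-masked values of 2.14 on plate B and 0 on plate A (0 of 1699 counts). A 0 allows up to 3 counts, so no direction between the plates can be read from so shallow a segment. Its IBA1 values in N111 were 2.96 on plate B and 1.45 on plate A. On each plate of both mice the double-masked share of RTS0080776 was the higher.

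**Figure D4:**
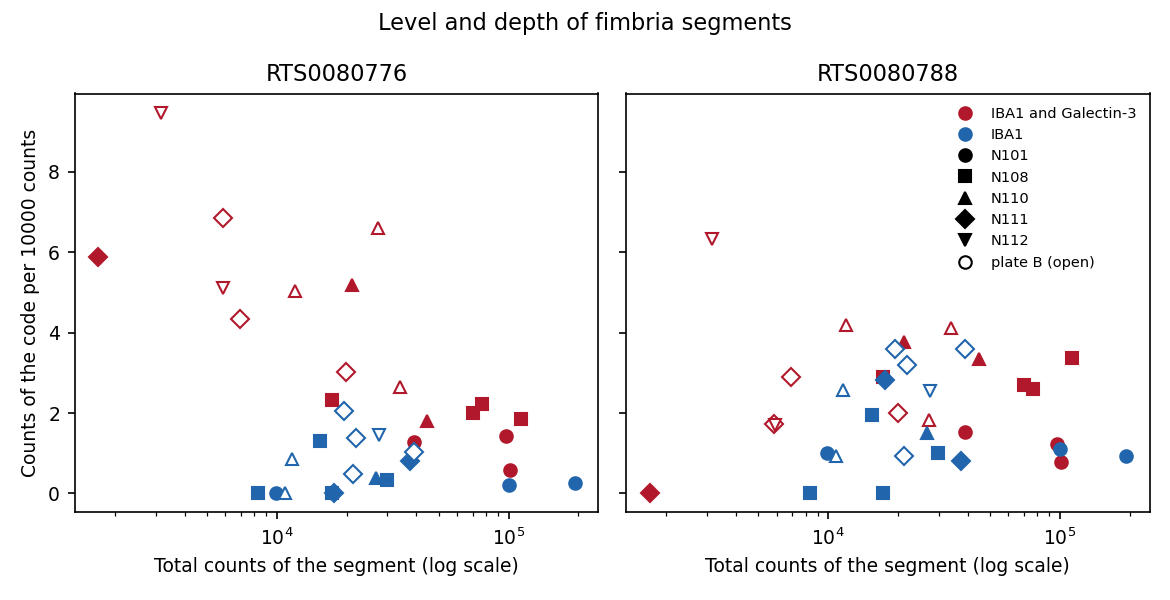
Share in counts per 10000 against the total counts of each fimbria segment (log scale), for the double mask (red) and IBA1 (blue), with open symbols for plate B. Double-masked shares of RTS0080776 are lower in deeper segments (r = -0.806), while those of RTS0080788 show little trend (r = -0.0807).

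Over all 45 sums the log2 shares of the 2 codes (pseudocount 1) had a Pearson r of 0.523. RTS0080788 ranked 56 among the 20174 other codes by likeness to RTS0080776, and RTS0080776 ranked 62 by likeness to RTS0080788. The median r of another code was 0.0154 with RTS0080776 and 0.0893 with RTS0080788. These ranks depended on the sums used: over the 41 sums of at least 5000 counts r was 0.452 and the ranks were 147 and 16, and over 19 fimbria sums r was 0.536 and the ranks were 587 and 184 of 19412. The sums share mice and depth, and the codes were picked for a like pattern. The 10 codes numbered between the members held 0.344 to 0.803 per 10000 in double-masked fimbria area, and 0 of them stood above RTS0080776. As RTS0080776 ranked 23 of 20175 codes there, few codes of the whole panel stood above it, and the 0 says nothing particular of these 10.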

How the data were processed

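Each masked segment has 1 file of whole-number counts per probe code, which the authors deposited after collapsing duplicate reads and without scaling. The software was GeoMx NGS Pipeline 2.3.3.10, per the file headers, and GRCm39 is the build in the submitters' processing notes. The count column of 36 files is listed under another unit, for a reason of file layout only, and the authors deposited whole counts there too.

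Segments with at least 1000 counts and saturation of at least 0.5 were summed per mouse, region and mask, and sums of at least 5000 counts were tested. Tests used edgeR 4.0.16 in R 4.3.3 (quasi-likelihood F test, TMM scaling, filterByExpr at a minimum count of 10, mouse as a block), with Benjamini-Hochberg adjustment over all codes tested and 0.05 as the threshold. A fit of 28 sums in 7 groups (237 codes, both members) served the comparisons among protein masks. Another of 27 sums in 6 groups (866 codes, RTS0080788 only) served those with SYTO83. Both were tested on simulated data with a shared mean profile and no mouse effect, which does not check the pairing by mouse. The regional contrasts under IBA1 and under both proteins, which may have chosen the members, carry no p. The mask contrasts carry a p, although some of their sums may also have been used to choose the members. The mouse pairs the samples, since segments of all masks come from the same animals. Paired share differences over mice had 10 exact sign-flip permutation tests, two-sided. Intervals for shares are Clopper-Pearson (95%), and a 0 allows up to 3 counts, for counting error alone.

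The members, lists and tests were chosen with earlier results of these data known. By rule no code but the members is named, and likeness used codes with at least 50 counts. Alternatives were DESeq2 1.42.0, other scaling and filters, other segment minimums, no mouse block, plate in the fit, segments of at least 75% aligned reads and each mouse left out. The aligned share as a covariate, each plate alone and the split by depth were added after the data were seen. The 6 anterior commissure segments held at most 333 counts each and did not pass. Figures used Python 3.11.15, pandas 2.3.3 and matplotlib 3.10.9.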

Additional observations from a re-analysis of the deposited data

Results flagged for a closer look

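In fimbria Galectin-3 sums, the share of RTS0080788 in N111 was 2.98 per 10000, far from the other 3 mice at 1.19 to 1.42. Its gap to the nearest mouse was 0.868 of the whole range, above Dixon's critical value for 4 samples. It rests on 7 counts of 23509. This was the only such sample in 14 groups tested, and chance flags about 1 group in 20.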

How the results depend on the processing

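Of 406 alternative values, 325 kept their direction and side of the threshold or stayed near the main value. RTS0080776 in double-masked against IBA1 fimbria sums ran from 1.82 to 2.25 log2 units and was called in 17 of 18 alternatives; the exception was plate B alone (1.90). In Galectin-3 against double-masked sums its call was lost at 75% aligned reads (-2.44), on plate A alone (-2.51), on plate B alone (-2.89) and without N101, N108, N110 or N111 (-2.93 to -1.99). The fold of RTS0080788 in fimbria IBA1 against SYTO83 sums turned to -0.15 scaled by total counts, -0.27 without the count filter and -0.13 on plate A alone, was 0.99 on plate B alone, 0.72 at 75% aligned reads and 0.53 with only the groups compared, and ran from -0.0671 to 0.405 with a mouse left out, negative without N112. Its SYTO83 fold of fimbria against hippocampus was -0.0503 on plate B alone. The causes were not tested.

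Share differences under SYTO83 were near 0 and changed sign. With the mean of segment shares, fimbria minus hippocampus was 0.0602 per 10000 for RTS0080776 and -0.237 for RTS0080788. With a mouse left out these ran from -0.274 to 0.161 and from -0.0342 to 0.800, fimbria minus cortex for RTS0080776 from -0.148 to 0.0877, and fimbria IBA1 minus SYTO83 for RTS0080788 from -0.357 to 0.529.

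The correlation of the codes ran from -0.0271 to 0.613 in double-masked, 0.701 to 0.854 in IBA1 and -0.210 to 0.386 in Galectin-3 fimbria segments with a mouse left out. Within mice the ranges were -0.440 to 0.430, 0.557 to 0.951 and -0.141 to 0.476. Stricter segment minimums gave -0.416 within mice in double-masked and -0.333 in Galectin-3 segments, and no minimums gave 0.480 in double-masked segments.

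Counts of called codes depended on the setting. The number of codes tested changed with the setting too, from 12 to 20175, so counts of calls do not compare as shares. In double-masked against IBA1 fimbria sums edgeR called 2 codes, and 1 was called by DESeq2, with only the groups compared, with plate added to the block, with no segment minimums or at 75% aligned reads, 0 on plate B alone, and 1 to 2 with a mouse left out. In Galectin-3 against double-masked sums, 6 of 237 were called. With only the groups compared it was 1 of 12, and RTS0080776 was not among those tested. With no filter on low counts 3 of 20175 were called. At 75% aligned reads it was 0 of 7882, on plate A alone 0 of 8319 and on plate B alone 2 of 91. With a mouse left out 0 to 6 were called. In the hippocampus, 2 were called, against 1 by DESeq2 or with only the groups compared, 4 scaled by total counts, 6 with plate added to the block, and 0 to 2 with a mouse left out. There 0 were called with no filter on low counts, under upper-quartile scaling, with stricter minimums, at 75% aligned reads, with the aligned share as a covariate or on either plate alone.

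In fimbria IBA1 against SYTO83, 45 codes were called, against 16 by DESeq2, 140 scaled by total counts (3 higher and 137 lower), 119 without the count filter, 7 at 75% aligned reads, 23 on plate A alone, 0 on plate B alone and 7 to 74 with a mouse left out. Without the mouse block, which pairs the sums, 16 were called. The block changed no call of either member. For SYTO83 fimbria against hippocampus, 1 was called, against 0 by DESeq2, with only the groups compared, at 75% aligned reads or on plate A alone, 2 scaled by total counts, 8 without the count filter, 3 on plate B alone and 0 to 1 with a mouse left out. Against the cortex, upper-quartile scaling called 1. Some settings left too few sums for a comparison and gave no value.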
